A study of Mus musculus with 7 samples.

Results

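The genes described are 10 that encode the laminin network around the muscle fibre and proteins that bind it: the laminin chains Lama2, Lama4, Lama5, Lamb1, Lamb2 and Lamc1, the integrin chains Itga7 and Itgb1, the integrin-binding cytoplasmic protein Itgb1bp2 (melusin), and Agrn (agrin). They were chosen by name, with earlier results of these data known, and all 10 were found among the 29869 gene symbols of the deposited table. Transcripts were counted in whole soleus, a slow-twitch hindlimb muscle, of 7 mice aged 60 days. All mice carried mdx, a mutation that removes dystrophin, the protein that ties the actin skeleton of the fibre to the membrane. The libraries of 4 mice are labelled mdx, and those of 3 mice are labelled mdx/Runx1f/f, which names a floxed allele of the transcription factor gene Runx1 on the same mdx background. The labels name no Cre driver. Counts in whole muscle come from fibres, connective tissue, vessels, nerve and immune cells together, so fewer cells of a type and less RNA per cell cannot be told apart.

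Laminins are secreted trimers of an alpha, a beta and a gamma chain that polymerise on the cell surface and form the core of the basement membrane. In muscle the trimers that hold the Lama2 chain are held at the fibre surface by dystroglycan, which is linked to dystrophin, and by the integrin made of the Itga7 and Itgb1 chains. Loss of Lama2 or Itga7 causes muscular dystrophy, and the Itga7 integrin is known as a second laminin link that can partly stand in for the dystrophin complex. Agrin is a laminin-binding proteoglycan that clusters acetylcholine receptors at the nerve-muscle synapse.

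The stretches upstream of Lama2, Lamb2 and Agrn are shown because Lama2 and Lamb2 encode laminin chains known from the fibre surface and the synapse and had levels that separated the groups, while Agrn did not. Each is the 250 bases before the annotated RefSeq start on GRCm38.p6 (for Agrn the more upstream of its starts), written 5′ to 3′ in the direction of the gene, with CG pairs in capitals. The Lama2 stretch is chr10:27616943-27617192 on the minus strand, that of Lamb2 is chr9:108479612-108479861 on the plus strand, and that of Agrn is chr4:156197489-156197738 on the minus strand.
Lama2: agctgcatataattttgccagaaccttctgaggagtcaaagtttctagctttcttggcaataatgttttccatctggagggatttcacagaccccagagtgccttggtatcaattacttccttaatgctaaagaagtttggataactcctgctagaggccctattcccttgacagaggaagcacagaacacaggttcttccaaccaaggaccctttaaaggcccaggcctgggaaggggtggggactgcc
Lamb2: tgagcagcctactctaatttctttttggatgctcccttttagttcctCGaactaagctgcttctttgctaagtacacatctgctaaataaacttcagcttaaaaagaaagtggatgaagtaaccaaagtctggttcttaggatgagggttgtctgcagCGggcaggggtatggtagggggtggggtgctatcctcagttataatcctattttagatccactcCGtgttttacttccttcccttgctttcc
Agrn: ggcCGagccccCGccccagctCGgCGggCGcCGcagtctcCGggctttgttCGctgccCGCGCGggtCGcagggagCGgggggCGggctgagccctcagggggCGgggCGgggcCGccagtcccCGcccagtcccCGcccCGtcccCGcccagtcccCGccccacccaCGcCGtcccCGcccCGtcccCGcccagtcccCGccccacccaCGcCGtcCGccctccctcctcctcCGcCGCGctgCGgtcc
The Lama2 stretch held 0 CG pairs and the Lamb2 stretch 3, against a median of 6 over 32851 such windows of all genes. Of all windows, 7.87% had as few CG pairs as Lama2. The Agrn stretch held 35 CG pairs and 83.6% G or C, and 2.97% of all windows had as many CG pairs. Entries were found for 6 of the 10 genes, with 7 windows in all, and none for Lama4, Lamc1, Itga7 and Itgb1bp2. Lamb1, Lama5 and Itgb1, whose groups overlapped as those of Agrn did, held 14, 19 and 21 CG pairs, and the other Agrn window 8. Whether CG pairs go with the differences between the groups was not tested. Because the series concerns Runx1, the windows were searched on both strands for TGTGGT, the core that Runx proteins bind, and for its variant TGCGGT. The core was in 0 of the 7 windows and in 14% of all windows. The variant was in 1 of the 7 windows, 8 bases before the start of Agrn in the stretch shown, and in 5.1% of all windows. A match is a run of letters and was not tested as a binding site.

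Per length of exon, the 10 transcripts spanned a wide range of levels in soleus labelled mdx. The level is the authors' normalised read count divided by the merged exon length in kilobases, taken from GENCODE M21 on GRCm38, which need not equal the gene models the authors counted. Itgb1bp2, which encodes a chaperone-like muscle protein that binds the tail of the Itgb1 chain, was highest at 3938 ± 551 normalised counts per kb (SD, n = 4). Itgb1, the beta chain shared by many integrins, followed at 1941 ± 233 (SD, n = 4). Itga7 stood at 895 ± 85.8, Lamb2 at 743 ± 23.8 and Lamc1 at 637 ± 110 (SD, n = 4 each). The 4 values of Itga7 lay between 818 and 982, above the 717 to 770 of Lamb2, whereas the ranges of Lamb2 and Lamc1 overlapped. A clear step separated these 5 from the other 5 genes: the lowest library of Lamc1 was at 533 counts per kb and the highest of Lamb1 at 337.

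Below that step, Lamb1, Lama4 and Lama2 did not differ beyond their spread, at 215 ± 84.9, 187 ± 69.6 and 172 ± 16.8 normalised counts per kb (SD, n = 4 each). Agrn stood at 135 ± 21.7 and Lama5 at 100 ± 12.3 (SD, n = 4 each), with Agrn between 115 and 164 and Lama5 between 89.1 and 113. In the mdx/Runx1f/f-labelled libraries the same 5 genes were the more abundant ones, but Lamc1, at 912 ± 163, and Lamb2, at 878 ± 80.9 (SD, n = 3 each), then stood above Itga7 at 690 ± 80.6 (SD, n = 3).

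**Figure D1:**
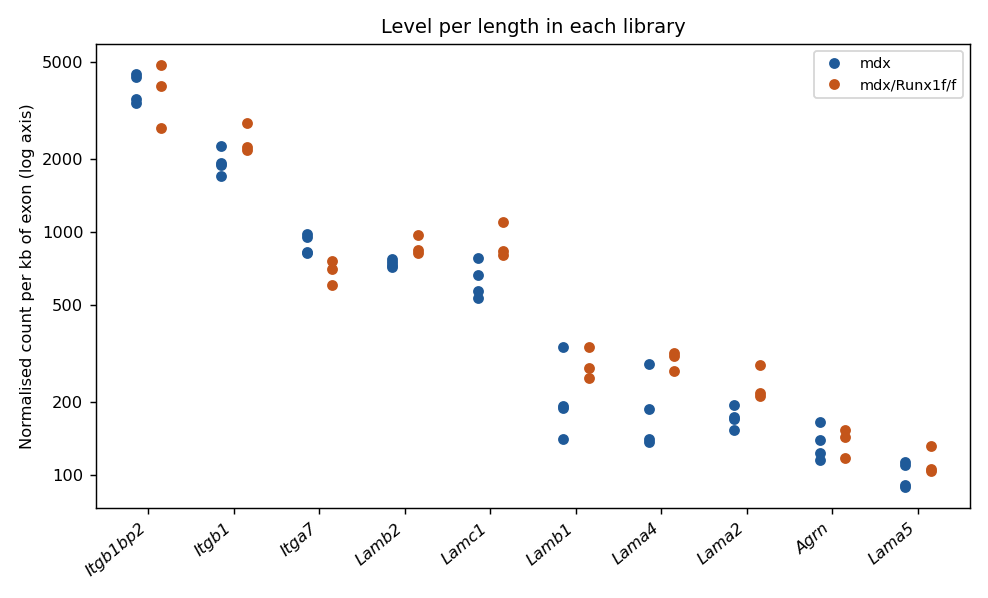
Normalised read count per kb of merged exon (log axis) for the 10 genes, ordered by their mean in the mdx-labelled libraries; each point is 1 library. Itga7 sits at 818 to 982 in the mdx-labelled libraries and at 602 to 761 in the others, where it falls below Lamb2 and Lamc1.

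Among the alpha chains, which decide what a laminin binds, Lama2 and Lama4 took the larger parts of the summed level per kb. Lama4 is the chain known from vessels and nerve, and Lama5 is widespread in vessel and epithelial basement membranes. In the mdx-labelled libraries the share of Lama2 was 46.2%, 36.2%, 40.1% and 30.4% in replicates 1 to 4, and that of Lama4 was 32.3%, 39.8%, 36.6% and 50.4%. Lama2 thus led in replicates 1 and 3, and Lama4 in replicates 2 and 4. In mdx/Runx1f/f replicates 1 to 3 the share of Lama2 was 35.3%, 33.4% and 40.5% and that of Lama4 43.4%, 50.2% and 44.4%, so Lama4 led in each, and the ranges of both shares overlapped between the groups. The share of Lama5 was 22.0% ± 2.13 (SD, n = 4), and 17.6% ± 3.27 (SD, n = 3) in the mdx/Runx1f/f-labelled libraries. Of the beta chains Lamb2, the chain known from the nerve-muscle synapse, made up 68.4% to 83.7% in the mdx-labelled libraries and 74.3% to 77.1% in the others.

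The libraries held between 16218306 and 20847902 counts, and members had between 767 and 11283 raw counts in a library. The titles, from which the groups were taken, conflict with other labels: the description field ties most animal numbers to another sample, and the design text reverses the group sizes. Runx1 was higher, not lower, in the mdx/Runx1f/f-labelled libraries, at 919, 925 and 596 normalised counts against 274, 273, 235 and 201 (log2 fold change 1.74, SE 0.18, adjusted p by edgeR = 0.00795). Every direction below therefore rests on the titles, and gene-level counts need not check the floxed part. Of 5 slow-fibre markers, among them Myh7 and Tnni1, none was at 0 in any library, and their mean lay between 10.1 and 12.7 log2 CPM (counts scaled to library size) per library.

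None of the 10 transcripts passed the test between the groups, although 8 of the 10 had higher means in the mdx/Runx1f/f-labelled libraries. All 6 laminin chains were among these 8, with fold changes from 1.13 for Lama5 to 1.59 for Lama4, while Itga7 was 1.30-fold lower. By the quasi-likelihood test of edgeR, with p-values adjusted by the Benjamini-Hochberg method over 14033 genes, 0 members were called higher, against 5.1% of all tested genes, and 0 lower, against 1.85%. At an unadjusted p below 0.05 there were 4 higher (17.1% of all genes) and 1 lower (12.4%). DESeq2 called Lama2 and Lamc1 higher (10.6% of all genes) and Itga7 lower (6.45%), and limma-voom called none (5.24% higher and 2.05% lower of all genes). In the authors' deposited table, Lama2, Lamb2 and Lamc1 are higher and Itga7 is lower at an adjusted p below 0.05, against 11.2% and 7.85% of the genes with an adjusted p. The values of the groups did not overlap for 3 higher members (13.9% of all tested genes) and 1 lower member (13.6%). The median log2 fold change was 0.28 over the 10 members and 0.45 over the 6 laminin chains, against -0.0016 over all tested genes. Because no member passed the main test, the differences below are given as values.

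**Figure D2:**
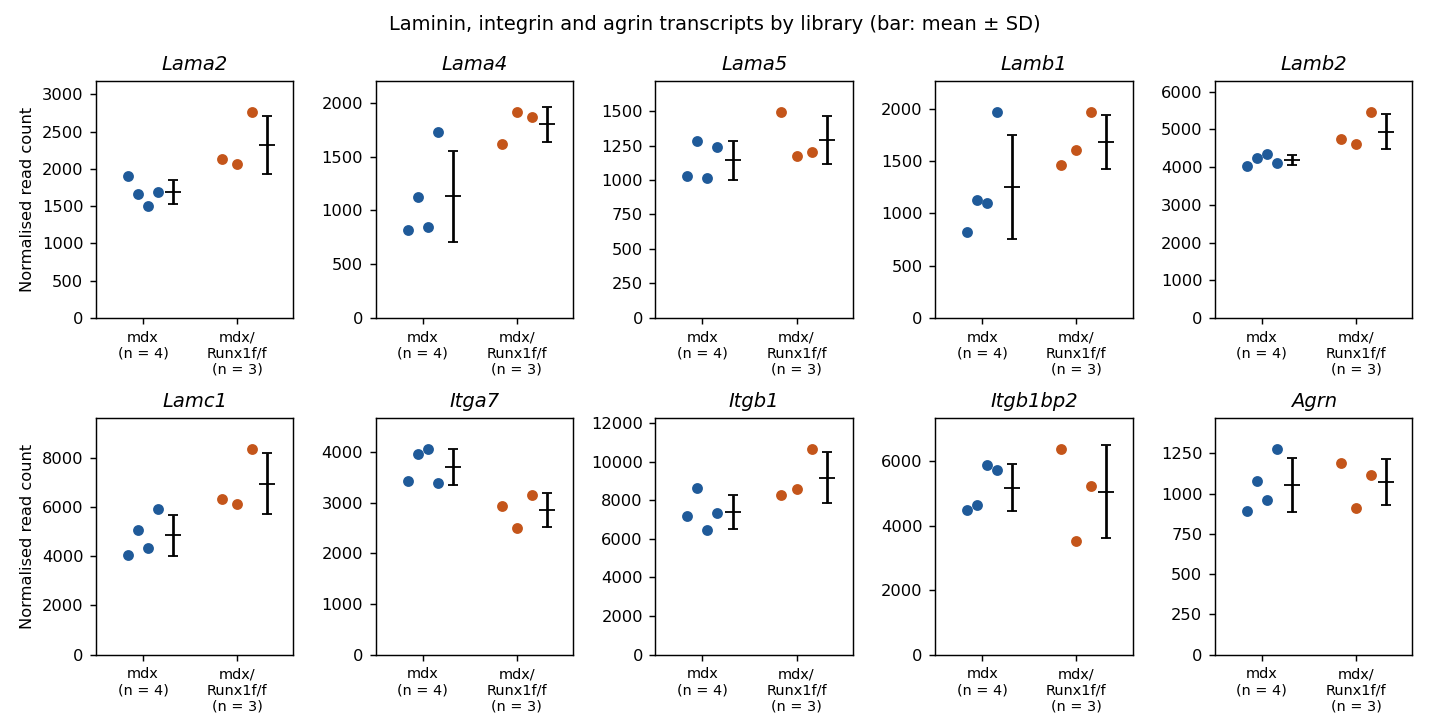
Normalised read count of each gene (linear axis from 0); points are libraries in replicate order, and the bar is the mean ± SD of the group. The groups are apart for Lama2, Lamb2, Lamc1 and Itga7 and overlap for the other 6 genes.

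Lama2, the laminin chain of the fibre surface, came nearest to the threshold. Its normalised read count was 1906, 1666, 1506 and 1688 in mdx replicates 1 to 4 and 2131, 2068 and 2765 in mdx/Runx1f/f replicates 1 to 3. Every mdx/Runx1f/f-labelled library was above every mdx-labelled library, and replicate 3 stood well above the other two of its group. The means were 1691 ± 164 (SD, n = 4) and 2321 ± 386 (SD, n = 3), with a log2 fold change of 0.46 (SE 0.13, 95% interval 0.16 to 0.77, adjusted p by edgeR = 0.0703). With mdx/Runx1f/f replicate 3 left out the value was 0.31. DESeq2 gave an adjusted p of 0.0204. The authors' deposited table gives a log2 fold change of 0.44 and an adjusted p of 0.0189. Within animals 358 to 363 the log2 fold change was 0.25 (adjusted p by edgeR = 0.342), and within animals 373 to 375, where replicate 3 is the only mdx/Runx1f/f-labelled library and is taken to vary like the other group, it was 0.80 (adjusted p by edgeR = 0.00592).

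Lama4 had a larger difference with a wider spread. Its normalised read count was 821, 1128, 847 and 1727 in mdx replicates 1 to 4 and 1612, 1914 and 1870 in mdx/Runx1f/f replicates 1 to 3. The groups overlapped through mdx replicate 4, which was above mdx/Runx1f/f replicate 1. The log2 fold change was 0.67 (SE 0.25, 95% interval 0.09 to 1.26, adjusted p by edgeR = 0.126). Without mdx replicate 4 it was 0.96 with an edgeR-adjusted p of 0.0366, past the threshold. Lama5 stood at 1032, 1286, 1015 and 1243 against 1493, 1176 and 1200, and its groups overlapped (log2 fold change 0.18, 95% interval -0.13 to 0.49, adjusted p by edgeR = 0.393). Its value was 0.054 without mdx/Runx1f/f replicate 1, the highest library.

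Of the beta chains, Lamb1, the partner of the Lama2 chain in the main laminin of the fibre surface and also a chain of vessels, also had its highest mdx value in replicate 4. Its counts were 818, 1126, 1102 and 1967 in mdx replicates 1 to 4 and 1463, 1607 and 1966 in mdx/Runx1f/f replicates 1 to 3. The mdx replicate 4 library was as high as the highest of the other group, and the interval of the log2 fold change of 0.43 ran from -0.21 to 1.06 (adjusted p by edgeR = 0.331). It was 0.73 without mdx replicate 4, 0.26 without mdx replicate 1 and 0.29 without mdx/Runx1f/f replicate 3. Lamb2 varied little among mice of the mdx group, at 4037, 4245, 4337 and 4112 in mdx replicates 1 to 4 and 4748, 4621 and 5466 in mdx/Runx1f/f replicates 1 to 3. Its groups did not overlap, with a log2 fold change of 0.25 (SE 0.10, adjusted p by edgeR = 0.137), or 0.16 with mdx/Runx1f/f replicate 3 left out. In the authors' deposited table the adjusted p of Lamb2 is 0.0338.

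Lamc1 encodes the gamma chain that nearly all laminins of muscle share. Its normalised read count was 4066, 5073, 4353 and 5939 in mdx replicates 1 to 4 and 6346, 6129 and 8375 in mdx/Runx1f/f replicates 1 to 3. The groups did not overlap, though mdx replicate 4 came close to the lowest library of the other group. The log2 fold change was 0.52 (SE 0.17, 95% interval 0.13 to 0.92, adjusted p by edgeR = 0.0950). It was called when the animal number series was added to the fit (0.56, adjusted p by edgeR = 0.0474) and by DESeq2 (adjusted p = 0.0349). Within animals 358 to 363 the log2 fold change was 0.46 (adjusted p by edgeR = 0.227). It was 0.71 within animals 373 to 375, where replicate 3 is the only mdx/Runx1f/f-labelled library.

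The 2 chains of the muscle laminin receptor integrin had values in opposite directions. Itga7, the alpha chain that sets the laminin binding, stood at 3422, 3965, 4069 and 3389 in mdx replicates 1 to 4 and at 2927, 2496 and 3154 in mdx/Runx1f/f replicates 1 to 3. Each mdx/Runx1f/f-labelled library was below each mdx-labelled library. The means were 3711 ± 356 (SD, n = 4) and 2859 ± 334 (SD, n = 3), with a log2 fold change of -0.37 (SE 0.12, 95% interval -0.65 to -0.09, adjusted p by edgeR = 0.0954). DESeq2 gave an adjusted p of 0.0360, and the authors' deposited table gives 0.0250. Within animals 358 to 363 the log2 fold change was -0.43 (adjusted p by edgeR = 0.230). It was -0.24 within animals 373 to 375, where replicate 3 is the only mdx/Runx1f/f-labelled library.

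Itgb1 stood at 7193, 8608, 6475 and 7338 normalised counts in mdx replicates 1 to 4 and at 8287, 8558 and 10668 in mdx/Runx1f/f replicates 1 to 3. The groups overlapped through mdx replicate 2, and the log2 fold change was 0.32 (SE 0.14, 95% interval -0.01 to 0.65, adjusted p by edgeR = 0.183). With mdx/Runx1f/f replicate 3, the highest library, left out it was 0.18. Within animals 358 to 363 it was 0.11 (adjusted p by edgeR = 0.727). It was 0.63 within animals 373 to 375, where that replicate 3 is the only mdx/Runx1f/f-labelled library. Itgb1bp2 showed no common direction: it was at 4473, 4631, 5877 and 5715 in mdx replicates 1 to 4 and at 6388, 3516 and 5239 in mdx/Runx1f/f replicates 1 to 3, which held both the highest and the lowest value. The interval of its log2 fold change of -0.03 ran from -0.51 to 0.46.

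Agrn was at 894, 1079, 958 and 1279 normalised counts in mdx replicates 1 to 4 and at 1192, 912 and 1116 in mdx/Runx1f/f replicates 1 to 3. The highest library was mdx replicate 4, as for Lamb1. The means were 1053 ± 170 (SD, n = 4) and 1073 ± 145 (SD, n = 3), and the log2 fold change of 0.04 had a 95% interval from -0.32 to 0.39 (adjusted p by edgeR = 0.90). Agrin of nerve and of muscle arises by splicing, and gene-level counts do not tell the forms apart.

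**Figure D3:**
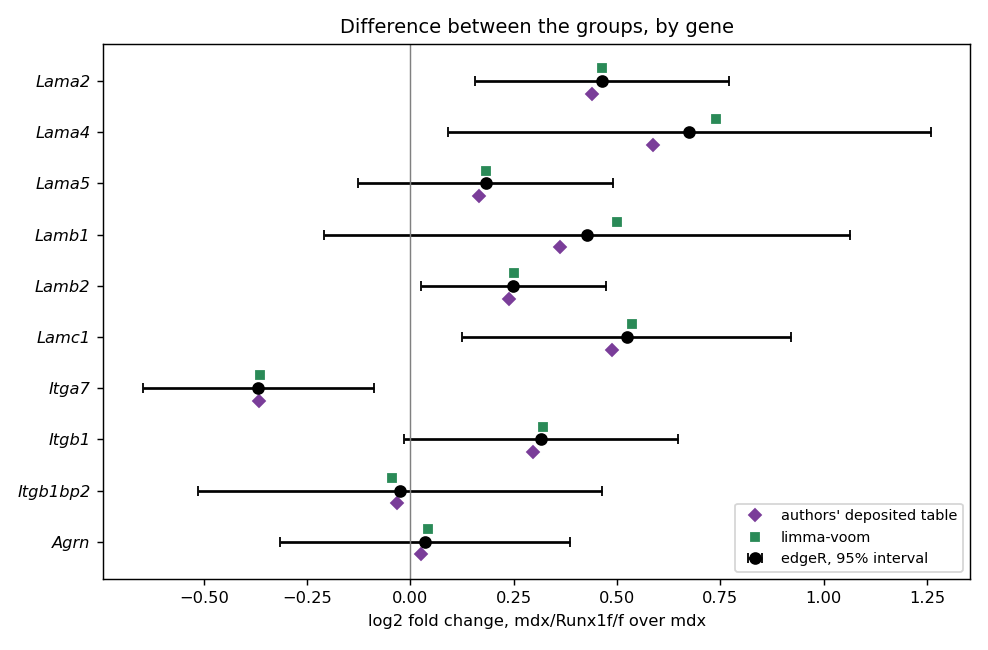
Log2 fold change of mdx/Runx1f/f over mdx for the 10 genes; black points are edgeR values with 95% intervals, green squares limma-voom and purple diamonds the authors' deposited table. The intervals of Lama2, Lama4, Lamb2, Lamc1 and Itga7 leave out 0, before adjustment for the number of genes.

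Ratios between chains within a library, which do not depend on how libraries are scaled, were compared for 4 pairs. Itga7 relative to Itgb1 was lower in the mdx/Runx1f/f-labelled libraries, where the difference in log2 CPM was -1.50, -1.78 and -1.76 in replicates 1 to 3, against -1.07, -1.12, -0.67 and -1.11 in mdx replicates 1 to 4. All 3 libraries were below all 4 of the other group. The means were -1.68 ± 0.15 (SD, n = 3) and -0.99 ± 0.22 (SD, n = 4), a change of -0.68, with p = 0.0286 by the two-sided exact permutation test, the smallest value that 35 splits allow, and 0.114 after Benjamini-Hochberg adjustment over the 4 pairs. The change was -0.54 within animals 358 to 363 and -0.87 within animals 373 to 375.

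The laminin pairs did not separate the groups. The change in Lama2 relative to Lama4 was -0.28 (two-sided exact permutation p = 0.429), in Lama2 relative to Lama5 0.28 (exact permutation p = 0.257) and in Lamb2 relative to Lamb1 -0.25 (exact permutation p = 0.486). Adjusted over the 4 pairs each of these p-values was 0.486. Single libraries moved all 3 changes by over 1.5 times. The change in Lama2 relative to Lama4 was -0.09 without mdx replicate 1 and -0.51 without mdx replicate 4. The change in Lama2 relative to Lama5 was 0.10 without mdx/Runx1f/f replicate 3 and 0.44 without mdx/Runx1f/f replicate 1. The change in Lamb2 relative to Lamb1 was -0.09 without mdx replicate 1 and -0.50 without mdx replicate 4. Lama2 relative to Lama4 was spread between -0.03 and 1.21 in the mdx-labelled libraries and between 0.11 and 0.56 in the others. These ratios are not corrected for exon length, which is 9812 bases for Lama2 and 6046 for Lama4. They therefore do not rank the chains as the shares per kb do, in which Lama4 led in each mdx/Runx1f/f-labelled library. Within the animal number series the change in Lama2 relative to Lama4 had opposite signs, at -0.63 within animals 358 to 363 and 0.17 within animals 373 to 375.

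**Figure D4:**
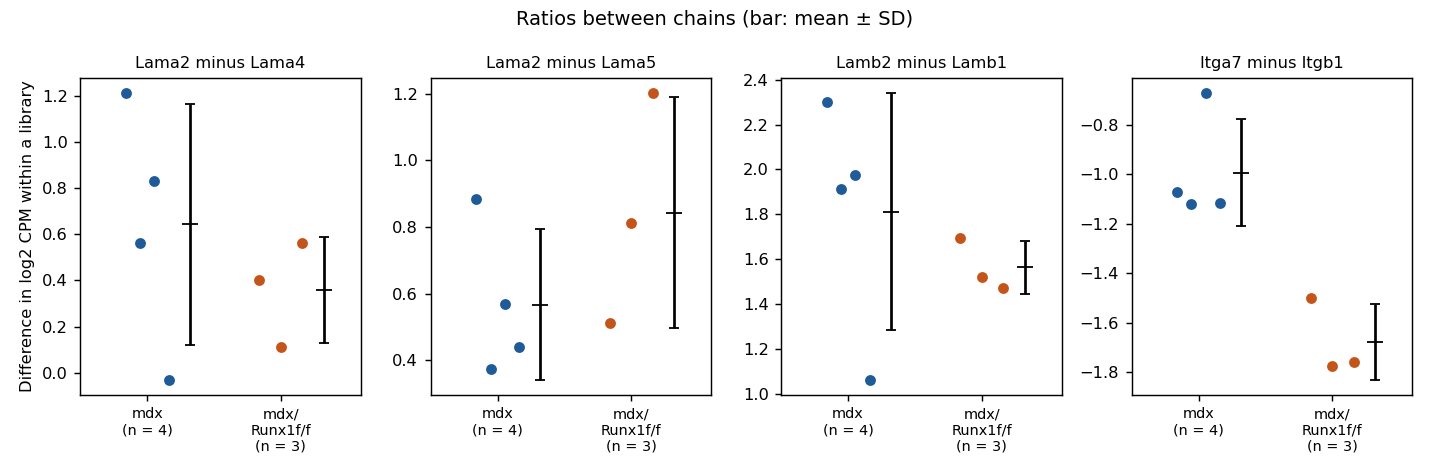
Difference in log2 CPM between 2 chains within each library for 4 pairs; points are libraries in replicate order and the bar is the mean ± SD. Only for Itga7 minus Itgb1 are the groups apart, at -1.78 to -1.50 against -1.12 to -0.67.

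Across the 7 libraries, the distance between the patterns of 2 members ran from 0.13 to 0.68. These distances were not set against those of other gene pairs, so a resemblance among members was not tested. The distance used is the root mean square difference between log2 CPM values centred on each gene's mean. Of the 45 pairs, Lamb2 with Itgb1 (0.13), Lama5 with Agrn (0.13) and Lama2 with Itgb1 (0.14) were closest, and Lama4 with Itga7 (0.68) farthest apart. Among 14023 other tested genes, those nearest to Lama2 were Pemt (0.07), Spire1 (0.08) and Zfp809 (0.10), and those nearest to Itga7 were Zfp882 (0.05), Nudt13 (0.05) and Nme6 (0.06). These 6 genes were picked for their likeness, so fold changes near those of Lama2 and Itga7 follow from the choice. None of the 6 was called by edgeR. Their edgeR-adjusted p-values were 0.174, 0.0537 and 0.0824 for those nearest to Lama2 and 0.172, 0.0698 and 0.0650 for those nearest to Itga7.

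The other laminin chains were scarce. Lama1 had at most 3 raw counts in a library and was not tested. Of the 4 tested chains, 0 were called by edgeR, with 0 at an unadjusted p below 0.05 and a median log2 fold change of 0.17. At that unadjusted cut-off 17.1% of all tested genes were higher and 12.4% lower.

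Of 10 tested partners of laminin in the basement membrane, 2 rose and 0 fell, with a median log2 fold change of 0.28. Of all tested genes, 5.1% rose and 1.85% fell. Nid1, which encodes nidogen and bridges the gamma chain of laminin to collagen IV, stood at 3476, 4279, 3390 and 4876 normalised counts in mdx replicates 1 to 4 and at 6947, 5938 and 7767 in mdx/Runx1f/f replicates 1 to 3. Col18a1, the collagen gene that holds endostatin, stood at 468, 635, 402 and 655 against 1037, 1162 and 1349. The groups of both genes did not overlap. Their log2 fold changes were 0.79 (SE 0.16, adjusted p by edgeR = 0.0331) and 1.14 (SE 0.19, adjusted p by edgeR = 0.0185). The call of Col18a1 was lost without mdx/Runx1f/f replicate 2 (adjusted p by edgeR = 0.0577), and that of Nid1 in each fit that left out a library except the one without mdx replicate 4 (0.0589 to 0.0872 where lost, adjusted p by edgeR). Values for the perlecan gene Hspg2 (0.30) and for Nid2 (0.43) were positive, and neither was called (adjusted p by edgeR = 0.313 and 0.323). The collagen IV genes Col4a1 and Col4a2, whose network lies beside that of laminin, had log2 fold changes of -0.03 and 0.08 with SEs of 0.41 and 0.34; they fall outside the rule for named genes and were chosen after their values were seen.

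Of 6 other laminin receptors and their partners, 1 rose and 0 fell (5.1% and 1.85% of all tested genes). Their median log2 fold change was -0.02. Itgb4, the partner chain of Itga6, was at 155, 239, 162 and 145 normalised counts in mdx replicates 1 to 4 and at 338, 330 and 433 in mdx/Runx1f/f replicates 1 to 3 (log2 fold change 1.07, SE 0.19, adjusted p by edgeR = 0.0240). Its call was kept in 3 of the 7 leave-one-out fits. It was lost without mdx replicates 3 or 4 or mdx/Runx1f/f replicates 2 or 3, at edgeR-adjusted p-values of 0.0714, 0.0574, 0.0586 and 0.0543. Dag1, which encodes dystroglycan, stood at 7845 ± 681 (SD, n = 4) and 6388 ± 816 normalised counts (SD, n = 3), with a log2 fold change of -0.29 (adjusted p by edgeR = 0.181). Bcam, a laminin receptor that binds the Lama5 chain, had -0.42 (adjusted p by edgeR = 0.161) and Itga3 0.61 (adjusted p by edgeR = 0.0735).

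Of 9 other alpha chains that pair with the Itgb1 chain, 2 rose and 0 fell (5.1% and 1.85% of all tested genes). All 9 had a positive log2 fold change (49.8% of all tested genes), with a median of 0.57. Itga4, a fibronectin and VCAM receptor chain of leukocytes, was at 171, 157, 72.9 and 99.7 normalised counts in mdx replicates 1 to 4 and at 333, 534 and 255 in the others (log2 fold change 1.59, SE 0.34, adjusted p by edgeR = 0.0352). Itga9 was at 354, 432, 390 and 393 against 626, 669 and 1403 (log2 fold change 1.20, SE 0.27, adjusted p by edgeR = 0.0405). Leaving out mdx/Runx1f/f replicate 3 gave Itga9 a value of 0.72. Each of these calls was kept in 2 of the 7 leave-one-out fits: that of Itga4 without mdx replicate 1 or mdx/Runx1f/f replicate 3, and that of Itga9 without mdx/Runx1f/f replicates 1 or 3. Itga11, a collagen receptor chain of fibroblasts, had 1.13 (adjusted p by edgeR = 0.0518) and Itga2 1.06 on few counts (adjusted p by edgeR = 0.119).

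The cytoplasmic and synaptic partners held no called gene. Over all tested genes, 5.1% were called higher and 1.85% lower by edgeR. At an unadjusted p below 0.05, 17.1% of all tested genes were higher and 12.4% lower. Of 13 integrin adaptors, 0 were called by edgeR and 5 had an unadjusted p below 0.05, with a median log2 fold change of -0.05. Parva, a parvin gene, had 0.58 (adjusted p by edgeR = 0.0556), Lims1 -0.63 (0.0688), Tln2, a talin gene, -0.39 (0.0890) and Rsu1 0.34 (0.0953). The paralogs of Parva and Tln2 had the opposite sign, with Parvb at -0.14 and Tln1 at 0.25 (adjusted p by edgeR = 0.403 and 0.147). Both paralogs fall outside the rule for named genes and were added after their values were seen. Of 5 genes of the agrin receptor and its activation, 0 were called by edgeR and 2 had an unadjusted p below 0.05, with a median log2 fold change of -0.30. The kinase gene Musk had -0.45, the scaffold gene Rapsn -0.43, the receptor gene Lrp4 -0.30 and Dok7 -0.09 (adjusted p by edgeR = 0.167, 0.119, 0.269 and 0.838). The mean over this list was between 4.35 and 4.65 log2 CPM in the mdx-labelled libraries and between 4.21 and 4.30 in the others. Each of the 5 genes overlapped between the groups, as did Agrn itself. List means were also apart for the genes of the dystroglycan sugar chain (4.29 to 4.44 against 4.06 to 4.26). The same held for the other alpha chains that pair with Itgb1 (3.25 to 3.68 against 3.88 to 4.58).

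Of 12 genes for the sugar chain by which dystroglycan binds laminin, 0 were called by edgeR and 3 had an unadjusted p below 0.05. At that unadjusted cut-off 17.1% of all tested genes were higher and 12.4% lower. Of the 12, 2 had a positive log2 fold change, with a median of -0.18. Pomgnt1 had -0.41, Ispd -0.55 and Large -0.58 (adjusted p by edgeR = 0.0728, 0.0915 and 0.107). Over these 7 lists DESeq2 called 8 genes higher and 3 lower (10.6% and 6.45% of all tested genes). By edgeR 5 were called higher and 0 lower (5.1% and 1.85% of all tested genes).

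**Figure D5:**
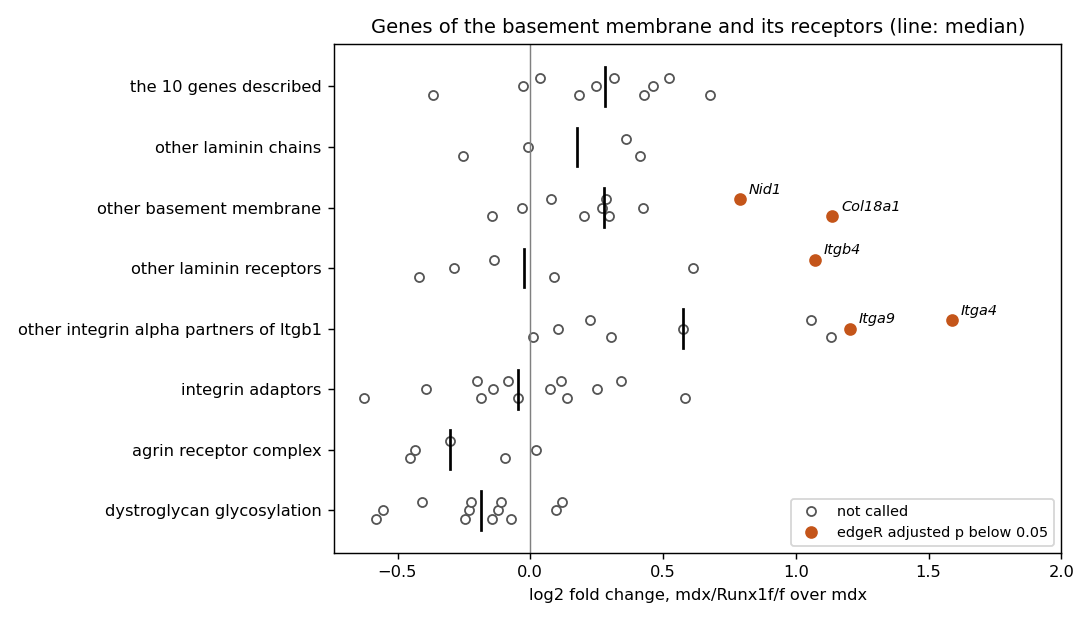
Log2 fold change of mdx/Runx1f/f over mdx for the 10 genes and for 7 lists of related genes; filled points passed edgeR's test and the line is the median of the list. The 5 filled points lie between 0.79 and 1.59, beyond each of the 10 genes described.

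The list means of 5 marker sets, for fibro-adipogenic progenitors, Schwann cells, macrophages, adipocytes and slow fibres, did not overlap between the groups, and those of 4 other sets did. How often the means of other gene lists do not overlap was not computed. Of 6 fibro-adipogenic progenitor markers 5 rose and 0 fell, against 5.1% and 1.85% of all tested genes. The list's mean per library was between 6.73 and 7.24 log2 CPM in the mdx-labelled libraries and between 8.15 and 8.30 in the others. Of 6 Schwann cell markers 2 rose, with means of 2.28 to 2.61 against 3.14 to 3.33, and of 8 macrophage markers 2 rose, with 3.21 to 5.23 against 5.25 to 6.63. Of 4 adipocyte markers 3 rose, with means of 1.18 to 2.47 against 2.68 to 4.69. Of 6 endothelial markers 1 rose, with means of 5.80 to 6.70 against 6.14 to 6.93. The 5 smooth muscle and pericyte markers were at 6.44 to 6.88 against 6.71 to 7.32, and 0 were called by edgeR. In the mdx replicate 4 library, Lama4, Lamb1, Lamc1 and Agrn were highest within its group. Its endothelial mean, its smooth muscle and pericyte mean and its Schwann cell mean were also the highest of that group. Its slow-fibre and adipocyte means were the lowest of that group. Among the mdx/Runx1f/f-labelled libraries, the endothelial mean was highest in replicate 3, as were Lamb1 and Lamc1. Lama4 was highest in replicate 2, where the endothelial mean was lowest, and Agrn in replicate 1. Beside Itga7, the slow-fibre list had means of 11.96 to 12.7 log2 CPM in the mdx-labelled libraries and 10.1 to 11.9 in the others. Of its 5 genes, 0 were called by edgeR and 3 had an unadjusted p below 0.05. At that unadjusted cut-off 12.4% of all tested genes were lower. The lowest slow-fibre mean, 10.1, was that of mdx/Runx1f/f replicate 1, whose fast-fibre mean of 12.7 was the highest. In the same group, replicates 2 and 3 both had slow-fibre means of 11.9. Itga7 was lowest in replicate 2 of that group, at 2496 normalised counts, against 2927 in replicate 1. Among the mdx-labelled libraries, Itga7 and the slow-fibre mean were both lowest in replicate 4. The 6 fast-fibre genes were at 10.1 to 11.5 against 10.2 to 12.7, and the 5 satellite and regeneration genes at 4.35 to 5.23 against 4.73 to 5.82, with 0 called in either list by edgeR. No marker in these lists was at 0 in any library. The part of these cell types in the laminin and integrin values was not tested.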

How the data were processed

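The authors deposited 1 table of raw read counts per gene symbol for the 7 libraries, made with TopHat2 2.0.10 and HTSeq on mm9, per the submitters' processing notes. It also holds normalised counts, a signal that the authors made by dividing by 1 size factor per library (the ratio to the counts was constant within each library). The authors' log2 fold change, its standard error, the Wald score and the p-value columns were deposited too, under DESeq2's column names per the file headers, and the notes name DESeq2 1.6.3. The sources used here do not give the strand setting, gene models or filters, so overlapping genes cannot be told apart. In GENCODE M21, 1.57% of the exon bases of Lama2 overlap an antisense gene and 0.217% of those of Itga7 overlap Mettl7b. The symbol Lamb1-1, at 1 or 2 raw counts per library, was left out.

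Columns were joined to samples through the animal numbers in the titles. The titles name 7 animals, which were read as the replicates. Normalised counts in the text are the authors'. Groups were compared in R 4.3.3 by edgeR 4.0.16 (TMM, filterByExpr, quasi-likelihood test, group as the only term) over 14033 genes, which hold 99.9% of all counts, and called at a Benjamini-Hochberg adjusted p below 0.05. The SE is the log2 fold change over the root of F. DESeq2 1.42.0, limma-voom (limma 3.58.1), RLE size factors, no low-count filter, a filter of 10 CPM in 3 libraries, a replicate block, the animal number series and leaving out each library were alternatives. Log2 CPM used a prior count of 2. The fit was tested on simulated data with planted changes larger than that of any member, so changes as small as theirs were not covered. Named are all members, Runx1, up to 4 genes per list with the smallest p, and the 3 genes nearest in pattern to Lama2 and to Itga7. Some genes that this rule names are not reported here. From the marker lists only counts and list means are given, beside the slow-fibre genes. Members and lists were chosen with earlier results of these data known.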

Additional observations from a re-analysis of the deposited data

Results flagged for a closer look

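The difference in log2 CPM between Itga7 and Itgb1 was -0.67 in mdx replicate 3, away from the other 3 mdx-labelled libraries, which stood between -1.12 and -1.07. Its gap to the nearest of them was 0.896 of the range of the group, above Dixon's 95% critical value for 4 samples. In that library Itga7 was at 4069 normalised counts, the highest of the 7 libraries, and Itgb1 at 6475, the lowest. Without it the change in the ratio between the groups was -0.58. Of 15 such checks (10 members, Runx1 and 4 ratios) 1 passed the critical value, and chance alone passes about 1 in 20.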

How the results depend on the processing

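Every alternative that was run kept the sign of the log2 fold changes of Runx1, the 6 laminin chains, Itga7 and Itgb1. Those of Itgb1bp2 and Agrn lie near 0 and changed sign. Itgb1bp2 was at 0.021 with the filter of 10 CPM, 0.026 in the fit that adds the animal number series, 0.14 within animals 358 to 363, and 0.041, 0.024 and 0.18 without mdx replicates 3 and 4 and mdx/Runx1f/f replicate 2, with a range from -0.24 to 0.18 when a library was left out. Agrn was at -0.0013 within animals 373 to 375, and at -0.041, -0.0059, -0.056 and -0.0026 without mdx replicates 1 and 3 and mdx/Runx1f/f replicates 1 and 3. The cause was not tested.

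Members called higher numbered 2 with DESeq2, 2 with the replicate block, 1 in the fit that adds the animal number series, 3 within animals 373 to 375 (2 libraries against 1) and 0 to 1 when a library was left out, and 1 was called lower with DESeq2. The members called with the replicate block by title number, in which mdx replicate 4 has no partner, were Lama4 (0.97, adjusted p by edgeR = 0.0467) and Lamb1 (0.74, adjusted p by edgeR = 0.0486). The deviations of same-numbered libraries from their group means correlated at -0.0069, 0.241 and 0.275. Those of differently numbered libraries ran from -0.46 to 0.506. With so few libraries these values cannot settle whether the numbers pair the samples.

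Over all genes DESeq2 called 1491 higher and 905 lower, the replicate block 240 and 80, the added animal number series 1246 and 582, animals 373 to 375 alone 1361 and 440, and animals 358 to 363 alone 0 and 0. Leaving out a library gave 173 to 641 higher and 17 to 209 lower. Genes of the 7 lists called higher and lower numbered 8 and 3 with DESeq2, 8 and 2 with the added series, 9 and 0 within animals 373 to 375, 0 and 0 within animals 358 to 363, 2 and 0 with the replicate block, and 0 to 3 and 0 to 1 without a library. Within animals 358 to 363 the value for Runx1 was 1.77 (adjusted p by edgeR = 0.131). The change in Lama2 relative to Lama4 was 0.17 and relative to Lama5 0.70 within animals 373 to 375.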
